A study of Mus musculus with 12 samples.

Results

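The genes described here are the 200 whose transcripts rose late in control 3T3-L1 cells, out of 55487 genes in the table. They were selected on the shScram libraries alone. Among the 13688 genes with at least 1 TPM in both shScram libraries of the differentiation stage, each gene was scored as the lower of these 2 values minus the highest of the 4 earlier shScram values, on the log2(TPM + 1) scale. The 200 highest scores were taken, from 5.34 for Adipoq down to 1.04. The shScram rise is therefore a property of the choice and not a finding, and the question followed below is what these genes did in Fto-knockdown cells, which the choice did not use.

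3T3-L1 is a mouse preadipocyte fibroblast line that forms fat cells after a hormonal cocktail of IBMX, dexamethasone and insulin (MDI). Both lines were made with lentiviral hairpins and puromycin selection, so each is a selected population with no clone named: shScram carried a control hairpin and shFTO a hairpin against Fto, the m6A RNA demethylase gene. RNA was taken from growth-arrested preadipocytes (Pre), from induced cells at mitotic clonal expansion (MCE) and from cells labelled mature adipocytes (Diff), with 2 libraries in each of 6 groups. All 6 groups were 3T3-L1 cells without rhein, and which of the study's Fto hairpins the sequenced cells carried was not given in the sources used here. Values are TPM, a relative transcript abundance that corrects for gene length and keeps no sequencing depth. Nothing states that the 2 libraries of a group came from separate cultures, so the p-values below measure the spread between these libraries, which may be technical. In such bulk RNA, fewer cells of a type and less RNA per cell cannot be told apart.

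Adipogenesis runs in waves. The hormonal cocktail first induces early factors such as C/EBPβ while the cells divide again, and these turn on PPARγ and C/EBPα. These 2 regulators in turn drive the late genes of the fat cell, which encode fatty acid carriers, coat proteins of the lipid droplet, enzymes of triglyceride synthesis and secreted hormones such as adiponectin. The matrix around the cells is remodelled at the same time, and FTO has been linked to the early, dividing phase.

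The labels held for the knockdown, and the levels of adipocyte markers are given as a description. Fto (chromosome 8 of GRCm38, 91313525 to 91668439) stood at 52.7 and 58.3 TPM in shScram Pre, 59.1 and 55.7 TPM in shScram MCE and 73.5 and 70.8 TPM in shScram Diff. In shFTO the values were 5.51 and 5.55, 6.32 and 6.03, and 7.47 and 7.05 TPM at the same stages, so all shFTO libraries lay far below all shScram libraries. Of 10 adipocyte markers, 7 of which are among the 200 genes, the summed level was 1690 and 1669 TPM in shScram Diff and 494 and 452 TPM in shFTO Diff, and none of the 10 was at 0 in these 4 libraries. In shFTO MCE the same sum was 272 and 281 TPM. Since 7 of the markers were chosen for high shScram Diff values, nothing is read from the difference between the lines. One treatment entry of replicate 1 of shScram Diff names the knockdown, while its title names shScram and its Fto level of 73.5 TPM was that of a control. Replicate 1 of shScram Pre stood apart, with a correlation to its replicate over tested genes of 0.939, against 0.990 to 0.993 in the other groups. Both libraries entered the choice of the 200 genes, and choosing without either is given beside the main count below.

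Most of the 200 genes also rose late in Fto-knockdown cells. In shFTO cells, 131 of the 200 (65.5%) were higher at Diff than at MCE, 7 (3.5%) were lower and 62 did not pass the test (limma with a trend on the 6 shFTO libraries, two-sided, Benjamini-Hochberg adjusted p under 0.05 over 15968 genes). Of all tested genes, 35.0% were higher and 17.2% were lower in this comparison. The median change of the 200 genes was 0.96 on the log2(TPM + 1) scale, beside 0.17 for all tested genes. This general shift was removed by median-ratio scaling, which left the median of the 200 at 0.83, while quantile normalization left it at 0.58. Under that scaling 129 of the 200 were higher and 10 lower, while the split over all tested genes went from 35.0% higher and 17.2% lower to 26.7% higher and 28.7% lower. With quantile normalization 101 were higher and 11 lower, against 23.6% and 26.4% of all tested genes. Chosen without replicate 1 of shScram Diff, 176 of 200 genes passed the filter and could be tested, of which 114 were higher in shFTO cells. Chosen without replicate 1 of shScram Pre, all 200 were tested and 133 were higher.

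**Figure D1:**
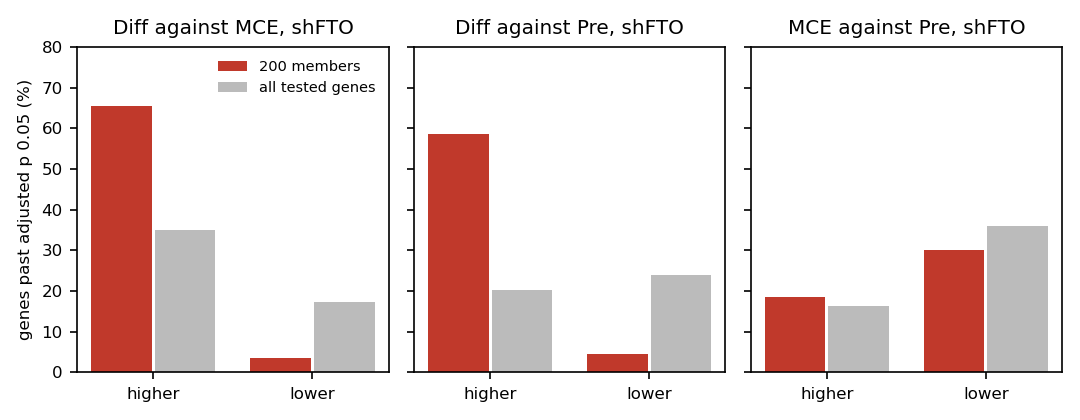
Percentage of genes past an adjusted p of 0.05 in shFTO cells, higher or lower, for the 200 late-rising genes (red) and all 15968 tested genes (grey), in 3 comparisons of stages. The red bar for higher at Diff stands above the grey one against both earlier stages (65.5% and 58.5%), while the bars for MCE against Pre are close to those of all genes.

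Split by the mean alone, 175 genes were higher at Diff than at MCE in shFTO cells and 25 were not. The share of all tested genes by the mean alone is not given here, so nothing is read from that split. For 164 genes both Diff values lay above both MCE values, which held for 51.6% of all tested genes. For 8 genes both Diff values lay below both MCE values, against 27.2% of all tested genes, and for 28 the values overlapped. With the filter applied to the 6 shFTO libraries instead, 145 of the 200 genes were tested, of which 116 were higher and 7 lower. Among all 14838 genes tested under that filter, 5497 were higher and 2796 lower. Of the 62 genes that did not pass the test, 35 stayed under 1 TPM in all 6 shFTO libraries, and 6 of the 200 were listed at 0 in all of them. In all, 45 of the 200 stayed under 1 TPM in these libraries and met the main filter only through shScram. Calls among those 45 carry little weight.

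The rise was mostly a rise over both earlier stages. Against Pre, 117 of the 200 genes were higher at shFTO Diff and 9 were lower, beside 20.2% and 24.0% of all tested genes. Of the 131 genes higher than at MCE, 101 were also higher than in Pre, 26 did not pass against Pre and 4 (Tcn2, Prelp, Mtus1 and Tns3, named after their values were seen) were lower than in Pre. From Pre to MCE, 37 of the 200 were higher and 60 lower, against 16.3% and 36.1% of all tested genes. That split depended on scaling, with 44 higher and 50 lower after median-ratio scaling and 49 higher and 43 lower after quantile normalization. Of the 194 genes above 0 in any shFTO library, 157 had their highest stage mean at Diff, 16 at MCE and 21 in Pre. Shares of all tested genes are not given here for these stage means or for the 101 genes. Nothing particular to the 200 is therefore read from these counts.

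The summed level shows the same course in the plot of members by library. The 200 genes together made up 2530.1 and 2762.4 TPM in shScram Pre, 5581.8 and 4982.3 TPM in shScram MCE and 17513 and 17059.7 TPM in shScram Diff. In shFTO they made up 3133.7 and 3182.9, then 4015.4 and 3807.6, then 10701.7 and 10597.1 TPM. The shFTO sum was highest at Diff, without overlap with the earlier stages. The sums of the lines are set side by side only, since the choice favours genes low in shScram Pre and MCE and high in shScram Diff. A few abundant genes carried these sums, since the 6 highest held 56.3% and 56.2% of it in shScram Diff and 63.6% and 63.9% in shFTO Diff. The number of genes of the whole table above 0 moved with the stages too, at 20853 and 21009 in shFTO MCE and 24002 and 23981 in shFTO Diff, and its part in the late rise was not tested.

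**Figure D2:**
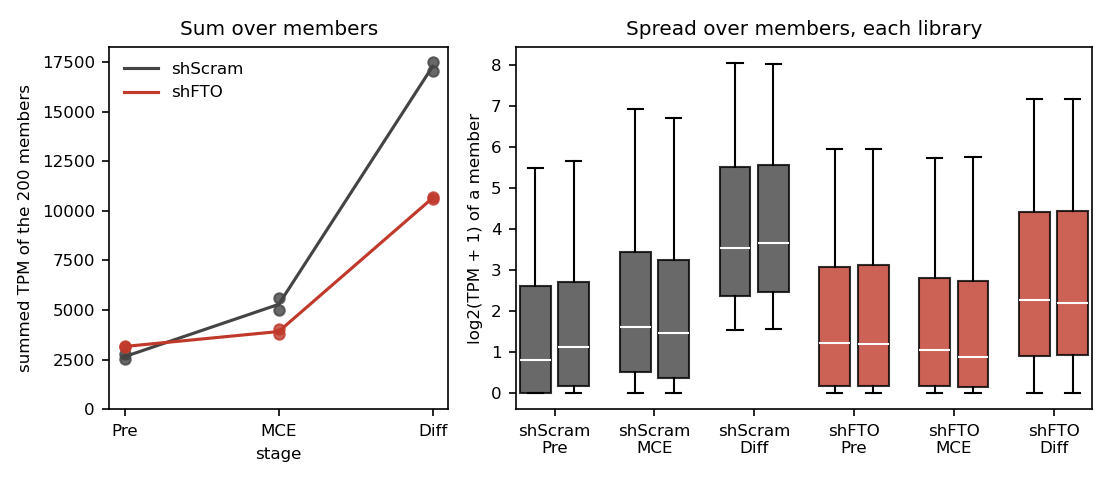
Left, summed TPM of the 200 late-rising genes at each stage, with 1 point for each library and lines through the means. Right, log2(TPM + 1) of the single genes in each of the 12 libraries, as boxes from the lower to the upper quartile with the median in white and whiskers at the 5th and 95th percentiles. The shFTO boxes at Diff sit above those of shFTO MCE and below those of shScram Diff.

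Next, the level reached at Diff was compared between the lines as a description, since the shScram values chose the genes. For 162 of the 200 both shFTO Diff values lay below both shScram Diff values, and for 27 both lay above; among all tested genes these shares were 34.0% and 39.0%, and nothing is read from the difference because the choice favours high shScram values. The median gene stood in shFTO Diff at 34.8% of its shScram Diff mean, and 46 genes stood under 10%. Of the 131 genes that rose in shFTO cells, 29 ended with a higher mean than in shScram and the rest with a lower one, 12 of them under 10%. The late change of a gene had a median of 1.78 in shScram and of 0.96 in shFTO on the log2 scale, and for 44 genes it was larger in shFTO.

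**Figure D3:**
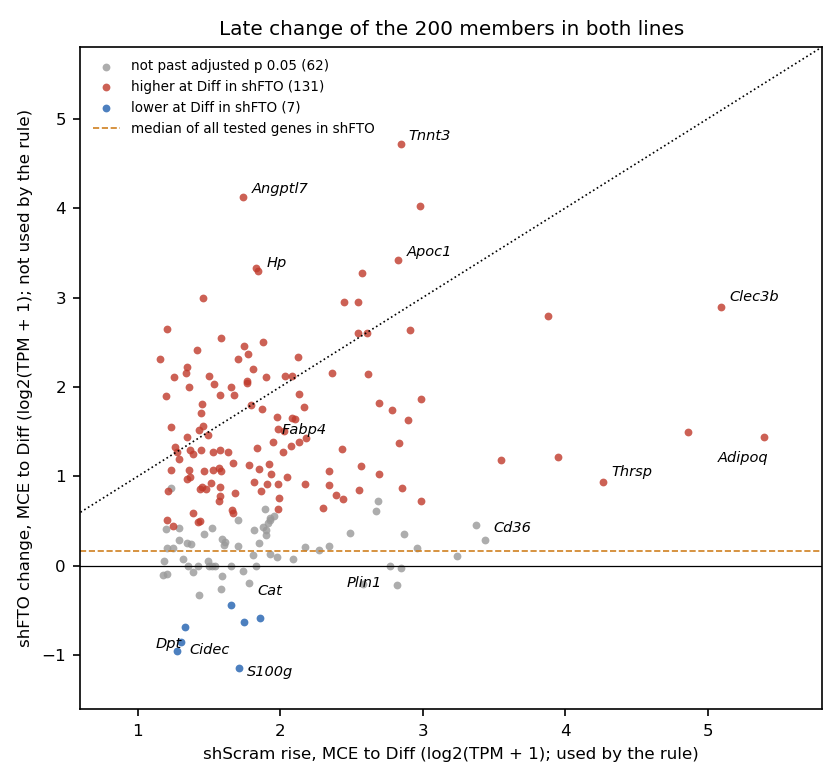
Change from MCE to Diff on the log2(TPM + 1) scale for each of the 200 genes, in shScram (x axis, used for the choice) and in shFTO (y axis, not used), coloured by the limma call in shFTO. The dotted line marks equal change, the dashed line the median of all tested genes in shFTO (0.17). Most genes lie below the dotted line, with Tnnt3, Angptl7, Hp and Apoc1 above it and 7 genes, in blue, below 0.

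The genes with the highest scores are described next. Their shScram Diff values put them first, so the share of the control level that shFTO reached is given as a description. Adipoq (chromosome 16), which encodes the fat cell hormone adiponectin, was listed at 0 in both Pre libraries of both lines. It stood at 0.817 and 0.791 TPM in shScram MCE and 77.2 and 72.4 TPM in shScram Diff. In shFTO it stood at 0.984 and 1.25 TPM at MCE and 6.05 and 3.66 TPM at Diff, a rise of 1.44 on the log2(TPM + 1) scale (SE 0.23, limma adjusted p = 0.0022). At MCE the values were low in both lines and slightly higher in shFTO. Low shScram MCE values took part in the choice, so nothing is read from this. At Diff, shFTO stood at 6.49% of the control level. Sult1a1, a phenol sulfotransferase, was at 99.9 and 95.8 TPM in shScram Diff and rose in shFTO from 0.716 and 0.431 to 3.84 and 3.03 TPM. Clec3b, which encodes the plasminogen-binding protein tetranectin, was at 66.7 and 49.2 TPM in shScram Diff and rose in shFTO from 0.868 and 0.343 to 12.6 and 9.14 TPM. Both passed the test with no overlap, Clec3b with the larger change of 2.89 (SE 0.26).

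Thrsp, a nuclear protein of lipogenic cells, was at 52.5 and 52.0 TPM in shScram Diff and 1.37 and 0.939 TPM in shFTO Diff, from 0.116 and 0.130 TPM at shFTO MCE. Gpd1, which makes the glycerol 3-phosphate backbone of triglycerides, was at 49.9 and 40.6 TPM in shScram Diff and 3.82 and 3.07 TPM in shFTO Diff, from 1.33 and 0.567 TPM. Cfd, the complement protease adipsin, was at 52.3 and 49.6 TPM in shScram Diff and 2.495 and 1.25 TPM in shFTO Diff, from 0.124 and 0.346 TPM. These 3 were called higher in shFTO cells, by 0.93, 1.21 and 1.19 on the log2 scale. They ended at 2.21%, 7.62% and 3.67% of the control level. Thrsp and Cfd lost the call under quantile normalization. Thrsp met the filter on low values only through the shScram libraries, so its call carries little weight. Ggt5, a gamma-glutamyltransferase, came closer, with 8.88 and 6.78 TPM in shFTO Diff against 19.4 and 14.8 TPM in shScram Diff.

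Cd36 did not pass the test in shFTO cells. This gene, which encodes the fatty acid carrier of the cell surface, was at 13.0 and 12.8 TPM in shScram MCE and 148 and 151 TPM in shScram Diff. In shFTO it was at 1.65 and 1.11 TPM at MCE and 2.71 and 1.24 TPM at Diff, overlapping ranges (log2 change 0.28, SE 0.27, limma adjusted p = 0.41), so that it ended at 1.32% of the control level.

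**Figure D4:**
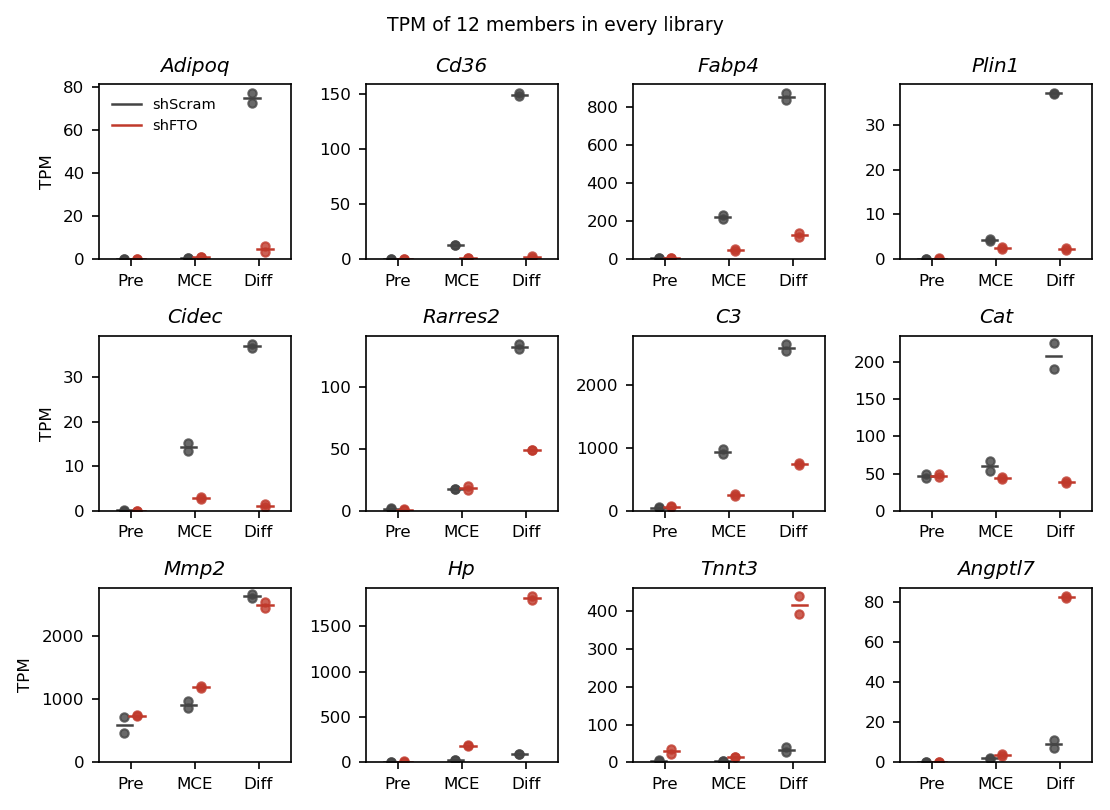
TPM of 12 late-rising genes in every library, by stage, for shScram (grey) and shFTO (red); points are libraries and bars their means. Adipoq, Cd36, Plin1 and Cidec stay near 0 in shFTO Diff on the scale of shScram, Mmp2 reaches a like level in both lines, and Hp, Tnnt3 and Angptl7 reach their highest values in shFTO Diff.

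The genes of lipid droplets and fatty acid handling had calls in both directions in shFTO cells. The counts of this and every other list below stand beside 35.0% higher, 17.2% lower and a median of 0.17 for all tested genes, and nothing particular to a list is read from them. Of the 5 late-rising genes on the list of droplet coat and lipolysis genes, 1 rose (Plin4), 1 fell (Cidec) and 3 did not pass (Plin1, G0s2 and Lgals12). Over the whole list, 4 of 12 tested genes were higher, 3 lower and 5 not past the test, with a median of 0.16, near the 0.17 of all genes, that turned to -0.13 under quantile normalization. Under either other scaling 4 were higher and 5 lower. Plin1, the coat protein that guards the droplet of the fat cell, was at 4.02 and 4.53 TPM in shScram MCE and 36.9 and 37.1 TPM in shScram Diff. In shFTO it was at 2.73 and 2.26 TPM at MCE and 2.65 and 2.21 TPM at Diff. The level reached at MCE was thus about that of Diff (log2 change -0.03, SE 0.17, limma adjusted p = 0.91), although with quantile normalization Plin1 was called lower.

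Cidec, which fuses droplets into larger ones, was at 37.3 and 36.5 TPM in shScram Diff. In shFTO it reached 2.77 and 3.07 TPM at MCE and fell to 0.932 and 1.46 TPM at Diff, by 0.85 on the log2 scale (SE 0.18, limma adjusted p = 0.0079; 0.055 without replicate 2 of shFTO MCE). Plin4, another coat protein, went the other way, from 6.02 and 6.30 TPM to 35.6 and 33.8 TPM in shFTO, against 114 and 104 TPM in shScram Diff. G0s2, an inhibitor of the lipase ATGL, was at 2.44 and 1.17 TPM at shFTO MCE and 3.27 and 3.10 TPM at shFTO Diff, and passed the test only without replicate 1 of shFTO MCE among the settings tried (log2 change 0.95). Lgals12, a galectin of droplets, stayed at 0.279 and 0.396 TPM in shFTO Diff.

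Of 4 late-rising genes of fatty acid uptake and binding, Fabp4 and Apoc1 rose, and Cd36 and Gpihbp1 did not pass. Fabp4, the fatty acid binding protein of fat cells, was already at 211 and 231 TPM in shScram MCE and at 876 and 836 TPM in shScram Diff. In shFTO it rose from 44.1 and 52.7 TPM to 138 and 118 TPM (log2 change 1.38, SE 0.15, limma adjusted p = 0.00042), reaching 14.9% of the control level. Gpihbp1, which holds lipoprotein lipase at capillary walls, was listed at 0 in all 6 shFTO libraries and stood at 2.03 and 1.72 TPM in shScram Diff. Over that list 6 of 13 tested genes were higher, 1 lower and 6 not past the test, with a median of 0.28, or 0.01 under quantile normalization. Of the 2 late-rising genes of triglyceride synthesis, Gpd1 rose and Agpat2, an acyltransferase of that path, did not pass, with 18.2 and 23.6 TPM at shFTO MCE and 25.1 and 26.6 TPM at shFTO Diff (it passed without replicate 2 of shFTO MCE, limma adjusted p = 0.018). That whole list had 2 higher and 2 lower of 10 tested genes, with a median of 0.08 that turned to -0.05 with median-ratio scaling and -0.04 with quantile normalization.

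Of the secreted adipocyte proteins, 5 late-rising genes passed the test as higher in shFTO cells (Adipoq, Cfd, Rarres2, Agt and Itih4). Itih4 stayed under 1 TPM in all 6 shFTO libraries and met the filter on low values only through shScram Diff, so its call carries little weight. Also, Cfd and Itih4 lost the call under quantile normalization and Itih4 also without either replicate of shFTO MCE (limma adjusted p = 0.089 and 0.069), and Agt lost it with the spread from all 12 libraries (0.067). The list held 11 higher and 4 lower of 16 tested genes, with a median of 0.835, or 7 higher and 5 lower with a median of 0.45 under quantile normalization. Rarres2, which encodes the chemoattractant chemerin, was at 131 and 135 TPM in shScram Diff and rose in shFTO from 16.7 and 20.3 TPM to 49.2 and 49.5 TPM (log2 change 1.38, SE 0.19). Agt, the precursor of angiotensin, was at 1308 and 1182 TPM in shScram Diff and rose in shFTO from 122 and 114 TPM to 218 and 220 TPM. Chemerin transcripts began the late phase at like levels in both lines, whereas those of Agt were already lower in shFTO at MCE, where shScram held 440.1 and 391.7 TPM. Itih4, a serum protein of the inter-alpha-trypsin inhibitor family, reached 0.728 and 0.604 TPM.

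Of the acute phase and complement genes, some ended above the control in shFTO cells. The 3 late-rising genes of that list rose, and over the list 9 of 15 tested genes were higher and none lower, with a median of 1.57. With median-ratio scaling or quantile normalization 8 were higher and 2 lower. Hp, which encodes the hemoglobin-binding plasma protein haptoglobin, was at 22.1 and 28.6 TPM in shScram MCE and 95.2 and 91.1 TPM in shScram Diff. In shFTO it rose from 182 and 187 TPM to 1837 and 1794 TPM (log2 change 3.29, SE 0.09, limma adjusted p = 8.8e-06). Haptoglobin values were higher in shFTO than in shScram at each stage, without overlap. The shScram values took part in the choice, so this and the other comparisons of the lines here are a description. Serpina3c, a secreted protease inhibitor, also ended higher, with 13.7 and 13.7 TPM in shFTO Diff against 5.45 and 3.95 TPM in shScram Diff. C3, the central complement protein, ended lower, rising in shFTO from 275 and 230 TPM to 755 and 737 TPM while shScram Diff held 2653 and 2540 TPM. Macrophages also express complement genes, and of 10 macrophage markers 4 were tested, with 1 higher and none lower, or none higher and 1 lower under quantile normalization. Their sum was 51.2 and 50.8 TPM in shFTO MCE and 47.0 and 48.0 TPM in shFTO Diff. Most of it was Cd14, which hides the course of the others. The one called higher was Aif1, from 0.772 and 1.04 TPM to 4.58 and 2.54 TPM (limma adjusted p = 0.0049). In shFTO Pre, Aif1 had been higher than at Diff, at 6.22 and 6.39 TPM. Adgre1 was at 0 in all 12 libraries and Ptprc at 0 in all 6 of shFTO. The part of such cells in the late rise was not tested.

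The other metabolic lists each held 5 of the 200 genes or fewer. Of 5 late-rising genes among oxidoreductases, esterases and detoxification enzymes, Aldh1a7 and Ephx2 rose and Ces1d, Car3 and Cat did not pass. The list had 12 higher and none lower of 21 tested genes with a median of 0.77, or 12 higher and 4 lower under either other scaling. Aldh1a7, an aldehyde dehydrogenase with close paralogs that could share its reads, rose in shFTO from 1.45 and 1.82 TPM to 45.5 and 38.4 TPM, against 45.7 and 56.1 TPM in shScram Diff. Ephx2, the soluble epoxide hydrolase, rose from 4.94 and 5.22 TPM to 11.6 and 9.27 TPM in shFTO, against 38.9 and 41.6 TPM in shScram Diff.

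Cat, the peroxisomal catalase, showed no late rise at all in shFTO cells. It was at 48.8 and 44.9 TPM in Pre, 45.3 and 43.3 TPM at MCE and 39.6 and 38.0 TPM at Diff, while shScram went from 66.8 and 53.1 TPM to 225 and 191 TPM. The values of the lines overlapped in Pre and lay apart at MCE and at Diff. The change from MCE was -0.19 (SE 0.07, limma adjusted p = 0.059), and Cat was called lower with median-ratio scaling (adjusted p = 0.0064) and with quantile normalization (0.040), and also without either replicate of shFTO Pre (0.038 each). Car3, a carbonic anhydrase abundant in fat, was at 14.6 and 17.8 TPM in shScram Diff and 0.493 and 0.0840 TPM in shFTO Diff, with 0.694 and 0.277 TPM at shFTO MCE, and was called lower with quantile normalization. Ces1d, a lipid carboxylesterase of a gene family with near copies, was at 4.01 and 4.58 TPM in shScram Diff and 0.592 and 0.260 TPM in shFTO Diff.

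Among genes of fatty acid oxidation, Pdk4 rose in shFTO cells. Pdk4, the kinase that shuts pyruvate out of oxidation, rose in shFTO from 17.4 and 15.1 TPM to 83.6 and 85.1 TPM (log2 change 2.31, SE 0.10) and so came close to the 88.9 and 91.8 TPM of shScram Diff. That list had 7 higher and 4 lower of 20 tested genes, close to the 35.0% and 17.2% of all tested genes, and a median of 0.09, or 6 higher and 7 lower and a median of -0.12 with median-ratio scaling. Thrsp was the sole late-rising gene of de novo fatty acid synthesis, where 4 of 13 tested genes were higher and 5 lower with a median of -0.05, or 2 higher and 8 lower with median-ratio scaling and 2 higher and 6 lower with quantile normalization. Mrap, an accessory protein of the ACTH receptor, was the one of the insulin, glucose and hormone list, where 8 of 13 were higher and 2 lower with a median of 0.59 (0.28 under quantile normalization), and it did not pass, with 1.31 and 0.267 TPM in shFTO Diff. Klf15, a zinc finger factor of late adipogenesis, was the one of the transcription factor list and rose in shFTO from 0.427 and 0.224 TPM to 2.18 and 1.43 TPM, a call lost with quantile normalization.

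That list of adipogenic factors had 8 higher and 1 lower of 14 tested genes with a median of 0.30, or 3 higher and 2 lower with a median of 0.09 under median-ratio scaling and 3 higher and 3 lower under quantile normalization. Pparg, the master regulator and not one of the 200, was named after its values were seen. It was at 32.1 and 27.9 TPM in shScram MCE and 40.3 and 44.6 TPM in shScram Diff, and in shFTO at 13.9 and 11.6 TPM and 17.7 and 16.9 TPM. Its level in shFTO was thus lower than in shScram at both stages, without overlap.

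Several lists held none of the 200 genes. Among interferon-stimulated genes 22 of 24 were higher and 2 lower at shFTO Diff than at MCE, with a median of 1.00, but their summed level was highest in Pre, at 6958 and 7069 TPM, against 766 and 807 TPM at MCE and 1662 and 1535 TPM at Diff. For MHC class I antigen presentation 10 of 15 were higher and 1 lower with a median of 0.38, or 5 higher and 3 lower with a median of 0.17 under median-ratio scaling. Branched-chain amino acid breakdown had 10 higher and none lower of 14 with a median of 0.43, or 6 higher with a median of 0.23 under median-ratio scaling, and thermogenic fat 1 higher and none lower of 3 with a median of -0.21, or 1 higher and 2 lower with quantile normalization.

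**Figure D5:**
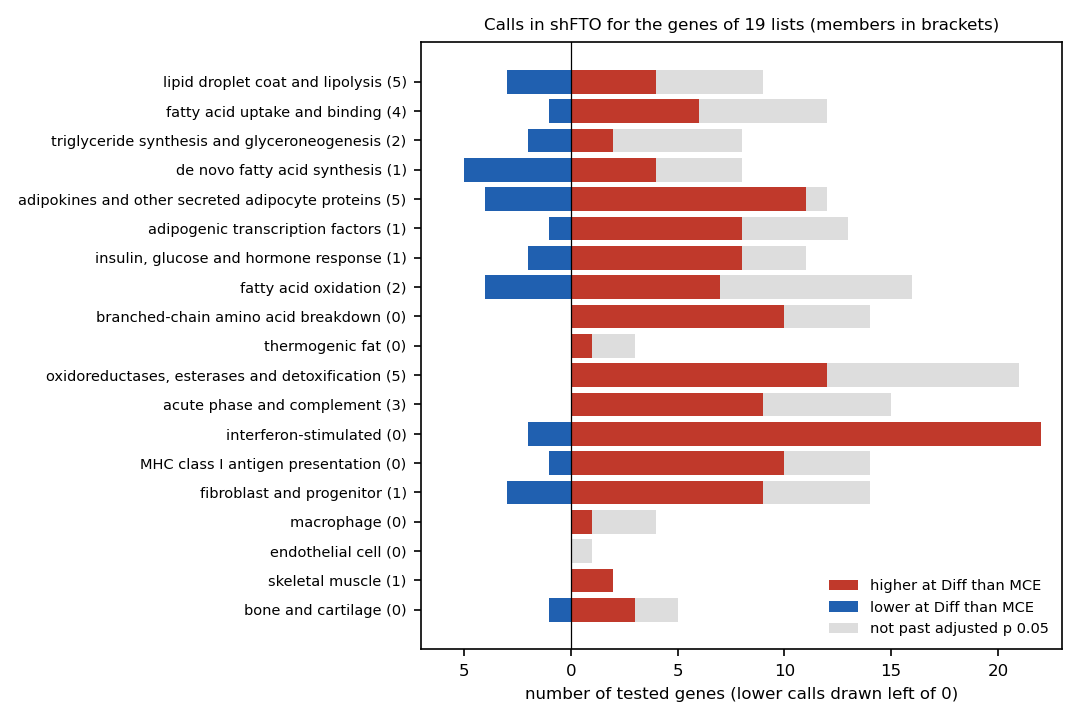
Number of tested genes in each of 19 gene lists that were higher (red), lower (blue, left of 0) or not past an adjusted p of 0.05 (grey) at Diff against MCE in shFTO cells; the number in brackets counts the late-rising genes on the list. De novo fatty acid synthesis has 5 lower genes and 4 higher, and interferon-stimulated genes are red for 22 of 24.

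Mmp2, Postn and Mgp were among the most abundant of the group and are described here with Lum. No list of matrix genes was set or tested, so nothing is read about such genes as a set. The shScram Diff values took part in the choice, so the levels reached in the lines are given as a description. Mmp2, the gelatinase A, was at 969 and 863 TPM in shScram MCE and 2663 and 2607 TPM in shScram Diff. In shFTO it rose from 1203 and 1173 TPM to 2453 and 2536 TPM (log2 change 1.07, SE 0.05, limma adjusted p = 2.5e-05), reaching 94.7% of the control level. Its end values lay just below those of shScram. Postn, which encodes periostin, rose in shFTO from 280 and 257 TPM to 411 and 421 TPM (a call lost with the spread from all 12 libraries, limma adjusted p = 0.111), against 1435 and 1534 TPM in shScram Diff. Mgp, the matrix Gla protein that restrains calcification, rose from 36.0 and 27.2 TPM to 68.3 and 56.5 TPM, against 932 and 880 TPM, and was lower in shFTO than in shScram at each stage without overlap. Lum, the proteoglycan lumican and the one late-rising gene of the fibroblast list, rose in shFTO from 10.1 and 10.3 TPM to 30.6 and 32.2 TPM, above the 11.99 and 10.8 TPM of shScram Diff. The fibroblast list had 9 higher and 3 lower of 17 tested genes with a median of 0.43, or 8 higher and 5 lower with a median of 0.22 under median-ratio scaling.

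The genes with the steepest late rise in shFTO cells, among the 142 with a mean of at least 5 TPM in shScram Diff, included Tnnt3, Angptl7, Aldh1a7, Apoc1, Hp, Ifi205, Adamts15, Prelp and Capns2. Tnnt3 (chromosome 7, 142498836 to 142516009), the troponin T of fast skeletal muscle, was at 3.76 and 3.72 TPM in shScram MCE and 27.0 and 40.4 TPM in shScram Diff. In shFTO it was at 36.6 and 22.9 TPM in Pre, 14.9 and 14.8 TPM at MCE and rose to 441 and 391 TPM at Diff (log2 change 4.72, SE 0.19, limma adjusted p = 1.4e-05). It overlaps Prr33 on the other strand, and whether counting used strand is not given in the sources used here, so its value is uncertain. Tnnt3 made up most of the muscle list, with Des at 6.52 and 6.32 TPM in shFTO MCE and 11.2 and 10.2 TPM in shFTO Diff, and the list summed to 452 and 402 TPM in shFTO Diff and 21.9 and 21.2 TPM in shFTO MCE. Only Tnnt3 and Des of the 10 muscle genes were tested, both higher, while Myod1, Myf5 and Myl1 were at 0 in all 12 libraries and Myog at 0 in 11 of them.

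Angptl7, a secreted angiopoietin-like protein, was at 2.21 and 1.78 TPM in shScram MCE and 11.1 and 7.23 TPM in shScram Diff. In shFTO it rose from 3.34 and 4.31 TPM to 83.3 and 82.0 TPM (log2 change 4.12, SE 0.14). As a description, since the shScram values took part in the choice, Angptl7 lay above both shScram values at MCE and at Diff. At Diff it stood at 902% of the control mean. It lies within Mtor on the other strand, so this value too is uncertain. Apoc1, a small apolipoprotein, rose in shFTO from 2.69 and 2.45 TPM to 36.8 and 37.7 TPM, above the 10.4 and 11.97 TPM of shScram Diff.

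The remaining steep risers ended near or below the control. Adamts15, a secreted protease of proteoglycans, rose in shFTO from 1.75 and 1.401 TPM to 20.2 and 18.7 TPM, against 22.9 and 25.2 TPM in shScram Diff. Prelp, a leucine-rich matrix protein, had 105 and 112 TPM in shFTO Pre, 4.91 and 3.08 TPM at MCE and 37.3 and 36.8 TPM at Diff, so it rose late without regaining its preadipocyte level. Ifi205, of an interferon-inducible family with near copies, went from 2.65 and 3.67 TPM to 41.4 and 36.9 TPM in shFTO. Capns2, a calpain small subunit, went from 1.15 and 1.58 TPM to 16.4 and 18.1 TPM, and overlaps Lpcat2, another of the 200 genes, on the same strand. Measured against their own shScram change, the genes with the largest shFTO rise included Angptl7, Neat1, Adamts15 and Pdk4. Neat1, the long noncoding RNA of nuclear paraspeckles, rose in shFTO from 21.3 and 21.4 TPM to 140 and 138 TPM and in shScram from 56.2 and 52.3 TPM to 129 and 124 TPM, so that similar ends were reached from a lower start.

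At the other end, 7 genes fell from MCE to Diff in shFTO cells, against the direction by which they were chosen in shScram. Dpt, the matrix protein dermatopontin, fell in shFTO from 336 and 331 TPM in Pre to 246 and 243 TPM at MCE and 152 and 151 TPM at Diff, by 0.68 over the last step (SE 0.04, limma adjusted p = 6.8e-05). In shScram it went from 57.5 and 62.8 TPM in Pre to 136 and 123 TPM and then 358 and 299 TPM. Values of Dpt in shFTO lay above those of shScram before the late phase and below them at the end. The rise in shScram is a property of the choice, so this crossing of the lines is given as a description. Beside Dpt and Cidec, the genes that fell were Arxes1 and Arxes2, Pxmp2, Fgf2 and S100g. Pxmp2, a peroxisomal membrane channel, went from 1.62 and 1.33 TPM to 0.399 and 0.161 TPM in shFTO. Fgf2, a growth factor whose gene overlaps 4 others, went from 8.05 and 7.83 TPM to 5.58 and 5.58 TPM. S100g, a calcium-binding protein named after its values were seen, was at 1.11 and 1.31 TPM at shFTO MCE and listed at 0 in both shFTO Diff libraries, against 2.93 and 1.95 TPM in shScram Diff.

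The pair Arxes1 and Arxes2, adipocyte genes of the X chromosome that are near copies of each other, fell from 3.90 and 3.77 TPM to 1.82 and 2.72 TPM and from 10.5 and 11.7 TPM to 6.26 and 7.45 TPM in shFTO. Because reads could be split between the copies, their separate levels are uncertain. Pxmp2 and Fgf2 lost the call without any 1 of the 4 libraries compared, Arxes1 without either replicate of shFTO MCE or replicate 1 of shFTO Diff, and Arxes2 without replicate 2 of shFTO MCE or replicate 1 of shFTO Diff (limma adjusted p from 0.071 to 0.158). The count of 7 rested on few libraries, with 4 genes lower without replicate 1 of shFTO MCE, 2 without its replicate 2 and 3 without replicate 1 of shFTO Diff. Adig, an adipocyte membrane protein also called adipogenin, and Plpp3, a phosphatase of lipid phosphates, completed the 10 lowest changes with Car3 and Cat. Adig was listed at 0 and at 0.206 TPM in shFTO Diff, and Plpp3 went from 216.1 and 198.4 TPM to 190 and 200 TPM, called lower only with median-ratio scaling among the settings tried.

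The limit of the choice fell within a narrow run of scores. Frmd6, Syde2 and Nkain4 were the last inside, with scores of 1.049, 1.043 and 1.043, and Slc25a42, Errfi1 and Acsl1 the first outside, all with 1.042. In shFTO Diff these 6 stood at 58.4 and 58.0, 2.75 and 1.95, 0.270 and 0.682, 21.9 and 24.6, 381 and 400, and 16.1 and 19.5 TPM.

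The 200 genes were also compared by features the choice did not use. They comprised 164 protein-coding genes, 8 antisense genes, 7 miRNA loci, 5 lincRNA genes and 16 of other classes, and of the protein-coding genes 110 rose, 7 fell and 47 did not pass in shFTO cells. The longest transcript of each in GENCODE M21 had a median length of 2500 bases and a median GC content of 51.5%, beside 2790 bases and 49.4% for all tested genes. Another annotated gene overlapped 99 of the 200, 76 of them on the opposite strand, so part of their reads could belong to the partner. Of the 101 with no overlap, 63 rose, 3 fell and 35 did not pass. Over all tested genes of any class, 35.0% were higher and 17.2% lower. Shares of all tested genes within these classes are not given here, so nothing is read from the counts.

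In 17 places of the genome, 36 of the 200 genes lay within 100 kb of another of them. No count of such places over all tested genes is given here, so nothing is read from these counts. Of all 200 genes, 65.5% rose. In 9 of these places every member rose in shFTO cells, and in 5 the members had different calls. One is the run of Mmp2, Lpcat2 and Capns2 on chromosome 8, from 92827291 to 92919279, where all rose. Lpcat2, which remodels phospholipids, went from 7.56 and 7.30 TPM to 26.2 and 31.7 TPM in shFTO. Another holds Plin1, which did not pass, and Pex11a, a peroxisome division protein, which rose. The others were Ikbke with Gm28913, Gm18445 with Ifi205, Ramp2 with Wnk4, St6galnac1 with Gm11735 and BC018473, Ly6h with Gpihbp1, Clic3 with Ptgds, Ralgapa2 with A930019D19Rik, Col27a1 with Orm3, Adamts9 with A730049H05Rik, Syn2 with Timp4, Klk1b21 with Klk1b24, Usp35 with Thrsp, Stra6 with Islr, Arxes1 with Arxes2, and Mir322 with Mir503.

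The last pair is a miRNA cluster on the minus strand of chromosome X, with Mir503 at 53053984 to 53054054 and Mir322 at 53054255 to 53054349. Both loci are known for small RNAs that slow the cell cycle. A TPM value at a hairpin locus is not a measure of the mature miRNA. Mir322 was at 6.47 and 7.90 TPM in shScram Diff, and went in shFTO from 0.235 and 0.385 TPM to 3.38 and 6.59 TPM (log2 change 2.14, SE 0.32, limma adjusted p = 0.0018). Mir503 was at 9.70 and 7.54 TPM in shScram Diff and at 9.16 and 2.64 TPM in shFTO Diff, and was listed at 0 in both shFTO MCE libraries. In shFTO both neighbouring loci had higher values at Diff than at MCE, while their high shScram Diff values are a property of the choice. The 2 shFTO Diff libraries differed more for Mir503 than for Mir322, and no test result for Mir503 is given here. The mature 5p sequences from RefSeq (GRCm38.p6) are shown 5′ to 3′ to compare the seeds of the pair, bases 2 to 8, in capitals.
mmu-miR-322-5p: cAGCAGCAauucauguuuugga
mmu-miR-503-5p: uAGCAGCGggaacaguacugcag
All 7 miRNA loci among the 200 had a mature sequence, with no seed in common. The seeds of this pair, AGCAGCA and AGCAGCG, differ in their last base.

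Promoter sequence was at hand for 123 of the 200 genes, fewer than 80 in 100, so a comparison of motif shares over the group is void, because so many members have no value. RefSeq promoters (GRCm38.p6, 250 bases before to 50 after the start) were searched on both strands for TATAAA, the core of the TATA box, which 9.36% of 10432 promoters of tested genes hold. The same search covered TTGCNNAA (10.1% of them), CACGTG (11.4%), AGGTCA repeated with 1 base between (0.0479%) and GAAA repeated with 2 bases between (3.84%). On the strand of the gene and 20 to 35 bases before its start, TATAAA was found for 4 of the 123. The share of all tested genes with a match at this place is not given here. For 3 of them with abundant shScram transcripts the surrounding bases are shown, 5′ to 3′ on the strand of the gene with the match in capitals, as a picture of the start region of genes that were high at Diff.
Agt, minus strand, chr8:124569711-124569756: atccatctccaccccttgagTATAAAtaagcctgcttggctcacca
Orm3, plus strand, chr4:63356109-63356154: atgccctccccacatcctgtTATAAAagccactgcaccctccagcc
Postn, plus strand, chr3:54361061-54361106: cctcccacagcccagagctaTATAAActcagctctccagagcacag
The match lay 30, 29 and 26 bases before the start of Agt, Orm3 and Postn. Orm3, an acute phase orosomucoid with close paralogs, was at 211 and 236 TPM in shScram Diff and rose in shFTO from 4.20 and 3.30 TPM to 13.3 and 10.8 TPM. These 3 rose in shFTO cells, to 17.6%, 5.399% and 28.0% of the shScram Diff mean. The other gene with a match there, BC049987, named after its values were seen, was listed at 0 in all 6 shFTO libraries.

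Endothelial and skeletal genes were looked at as markers of other cells. Of 10 endothelial genes 1 was tested (Eng) and did not pass. Their sum was 1.94 and 2.98 TPM in shFTO MCE and 3.62 and 3.73 TPM in shFTO Diff, with Kdr and Cldn5 at 0 in all 12 libraries. Of 12 bone and cartilage genes 6 were tested, with 3 higher and 1 lower and a median of 0.37, or 3 higher and 2 lower under median-ratio scaling and a median of 0.0061 under quantile normalization. Their sum of 851 and 884 TPM at shFTO MCE and 2247 and 2327 TPM at shFTO Diff was mostly Spp1, the secreted phosphoprotein osteopontin. Spp1 went in shFTO from 1474 and 1537 TPM in Pre to 768 and 804 TPM at MCE and 2185 and 2264 TPM at Diff. In shScram it fell late, from 967 and 933 TPM at MCE to 620 and 793 TPM at Diff. The part of Spp1 in the results for other genes was not tested.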

How the data were processed

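RNA of 3T3-L1 cells with shScram or shFTO hairpins was sequenced at 3 stages, 2 libraries per group. Groups follow the titles, also for replicate 1 of shScram Diff, whose treatment entry disagrees. The unit is TPM per gene, as the authors deposited it: StringTie 2.1.4 produced it from HISAT2 2.1.0 alignments on GRCm38 of reads cleaned by Trim Galore 0.6.5. For their own DEGs they used DESeq2 1.30.1 on counts, which were not used here. The sample labels give a size selection of 40 to 60 nt, which the paper describes for immunoprecipitated samples and their inputs. Whether it applied to these libraries is unclear, and its effect on short loci or near copies was not tested. TPM keeps no depth, so the depth of a library cannot be read from it, and precision is limited by having 2 libraries in each group.

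From these values, log2(TPM + 1) was computed, and 15968 of 55487 genes with at least 1 TPM in at least 2 of 12 libraries were tested, all 200 late-rising genes among them. The choice used shScram libraries, so limma 3.58.1 in R 4.3.3 was fitted to the 6 shFTO libraries alone (1 mean for each stage, trended empirical Bayes, 3 residual degrees of freedom), with Benjamini-Hochberg adjustment. The members and the 19 lists (lipid droplet, fatty acid uptake, triglyceride synthesis, de novo synthesis, adipokine, transcription factor, insulin and hormone, fatty acid oxidation, branched-chain amino acid, thermogenic, detoxification, acute phase and complement, interferon, MHC class I, fibroblast, macrophage, endothelial, muscle and bone) were chosen with earlier results of these data known. Of the listed genes, Gyk and Mut were not found under these symbols.

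Named were Fto, the 10 highest scores, the genes at the limit, the 10 highest and 10 lowest shFTO changes at 5 TPM or more in shScram Diff, the 6 most abundant, the 5 largest rises relative to shScram, members on a list and members within 100 kb of each other. A few genes that this rule names are not reported here. Genes outside this rule are said to be chosen later. Coordinates are from GENCODE M21 (GRCm38), where all 200 were found. The fit was tested on simulated data. Tables and plots were made in Python 3.11.15 (pandas 2.3.3, numpy 2.4.6, matplotlib 3.10.9). Rhein-treated and immunoprecipitated samples were not used here. Alternatives were the pseudocount, filters, scaling, the spread, the trend, the replicate block, each library left out, a fold limit and other choices of the members.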

Additional observations from a re-analysis of the deposited data

Results flagged for a closer look

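For 8 of the 200 late-rising genes both shFTO Diff values lay below both shFTO MCE values, beside 27.2% of all tested genes. Of the 200, 29 and 38 were at 0 in replicates 1 and 2 of shFTO MCE. A gene at 0 there cannot show such a fall, so nothing is read from its lower share among the late-rising genes. In shScram these 8 genes moved the other way by the choice of the genes. This difference between the lines was not tested. The mean of shFTO Diff minus that of shFTO MCE was -92.3 TPM for Dpt, -5.55 TPM for Cat, -4.24 TPM for Arxes2 and -2.36 TPM for Fgf2. It was -1.72 TPM for Cidec, -1.56 TPM for Arxes1, -1.21 TPM for S100g and -1.20 TPM for Pxmp2. All but Cat passed the limma test in shFTO cells.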

How the results depend on the processing

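TPM without depth, 2 libraries per group and a choice made on the control line limit these results. The counts of late-rising genes called in shFTO cells stayed within 1.5 times the main share in 109 of 120 combinations of count and alternative, and no named gene changed direction with a call. A fold change over 2 beside the adjusted p left 35.5% higher than Pre at Diff, 11.5% higher and 14.5% lower at MCE than Pre, and 0.5% lower than MCE and 1.0% lower than Pre at Diff. The share lower at Diff than MCE (3.5%) was 5.5% with quantile normalization and 1.5% with the score on log2(TPM + 0.1). With each library left out in turn it ranged from 1.0% to 4.0%, and the share lower at Diff than Pre (4.5%) from 2.5% to 4.5%, lowest without replicate 1 of shFTO Diff. There a lone library is assumed to vary like the others. The cause of these moves was not tested, beyond the fewer genes that a fold limit admits by construction. The count higher at Diff than MCE (131) was 114 to 132 with each library left out, 97 with the fold limit, 101 with quantile normalization, 138 with a pseudocount of 0.1 and 139 without the trend. Of 53 named genes recomputed, 11 lost and 8 gained a call under some alternative. Without the filter 129 genes were higher, and with a filter on the shFTO libraries 116 of the 145 left. The median change was 1.71 with a pseudocount of 0.1. With the spread taken from all 12 libraries, 120 were higher and 5 lower, and Agt, Postn, Arxes1 and Fgf2 lost the call (limma adjusted p = 0.067, 0.111, 0.102 and 0.226). Over all 15968 tested genes, 5589 were higher and 2746 lower at Diff than MCE in the main fit. That spread left 3222 higher and 1034 lower of them, and the fold limit 1909 and 352. The replicate numbers do not pair the libraries, since correlations of replicate deviations between the shFTO groups were 0.019, 0.040 and 0.172. With the replicate block 129 genes were higher and 7 lower at Diff than MCE, and no named call changed.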
